A study of Drosophila melanogaster with 64 samples.

Results

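Apoptosis and p53 genes, 8 in all, were followed in Drosophila heads after traumatic brain injury (TBI): the transcription factor genes p53 and Xrp1, the death inducers reaper (rpr), head involution defective (hid), grim and sickle (skl), the caspase inhibitor gene Diap1 and the initiator caspase gene Dronc. They were chosen by name, with earlier results of these data known. The 8 symbols matched 8 of the 17481 genes in the count table, and all 8 were abundant enough to be tested. The samples were whole heads of male w1118 flies, 20 heads per sample, taken after severe TBI or a sham procedure at 3 d of age, with uninjured 3 d old males as controls. Heads were taken at 1, 3, 6, 12 and 24 h and at 3, 7, 10 and 15 d after injury, with 3 biological replicates per group except at 15 d, where each group had 2. All groups carried the w1118 allele, and the labels name no other allele or agent.

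Libraries were made on 2 separate days, called library day 1 and library day 2 here. Day 2 held 1 to 24 h in 33 libraries of 18.6 to 44.9 M gene counts, and day 1 held 24 h to 15 d in 31 libraries of 9.16 to 26.4 M. The 9 RNAs of the control and 24 h groups were prepared on both days, so the 64 libraries came from 55 RNAs by the labels. Every test was made within a library day. Defining markers of neurons, glia, fat body and photoreceptors were all detected in every group, as whole heads would give, and the summed level of 3 germline genes stayed at or below 2.0 CPM on day 2. CPM are read counts scaled to a library size common to all libraries.

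In flies, developmental signals and damage switch on the inducer genes, whose small proteins bind Diap1 and release the caspases that it holds in check. Dronc, joined to the adaptor Dark, then activates the executioner caspases Drice and Dcp-1. The fly p53 protein acts after DNA damage and is known to activate rpr, hid and skl as well as Xrp1. Xrp1 encodes a bZIP transcription factor that also works in cell competition and in the response to ribosomal stress. Much of this regulation lies in the proteins, which were not measured here.

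Most of the genes lie on chromosome arm 3L and the other two on 3R. In the BDGP6.54 annotation, hid (FBgn0003997, 3L:18167745-18185641), grim (FBgn0015946, 3L:18302719-18304417), rpr (FBgn0011706, 3L:18397535-18398435) and skl (FBgn0036786, 3L:18438561-18439942) share the minus strand of a 272.2 kb stretch with 8 protein-coding genes in all. Diap1 (FBgn0260635, 3L:16038410-16051034, minus strand) and Dronc (FBgn0026404, 3L:9968479-9971002, plus strand) lie elsewhere on that arm. On 3R are p53 (FBgn0039044, 3R:23049657-23054082, minus strand) and Xrp1 (FBgn0261113, 3R:18914968-18926989, plus strand). The p53 exons share 812 bases with an antisense RNA gene, CR46089, which had 644 counts over all libraries against 15853 for p53. The sources used here do not say whether HTSeq counted by strand, so reads of the shared bases cannot be told apart. The same holds for 347 bases that Diap1 shares with an antisense RNA gene, CR45889 (185 counts against 280729), and 749 that grim shares with CR45974 (3 against 2772). Of its 1699 exon bases grim also shares 541 with a long noncoding RNA gene on its own strand, CR45975, which had 0 counts. No strand setting separates reads of those bases, so the level of grim per kb depends on how they were counted.

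The genes differed widely in abundance. In the day 2 controls, the level per length was highest for Xrp1, at 79.9 ± 12.4 CPM per kb of exon (SD, n = 3), followed by Diap1 at 48.7 ± 3.0. Far below came skl at 8.35 ± 1.29, Dronc at 5.93 ± 0.54, p53 at 4.16 ± 0.48, hid at 3.70 ± 1.29, rpr at 2.34 ± 0.58 and grim at 1.21 ± 0.26 CPM per kb. Only p53 and hid overlapped as neighbours in this order. In the day 1 controls the order from skl to p53 could not be resolved, since skl overlapped Dronc, Dronc overlapped hid and hid overlapped p53. rpr had 11 to 100 counts per library and grim 8 to 98, whereas Xrp1 had at least 6035. The standard error of a day 2 log2 fold change was about 0.26 for rpr, but it did not follow abundance throughout: Xrp1 had 0.19, above the 0.10 of Dronc and the 0.11 of p53.

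In the first hours after injury, the genes of the caspase inhibitor and the initiator caspase were called higher than in sham. p53 and Xrp1 were called with them at 3 and 6 h. Xrp1 was already higher at 1 h, by 0.58 on the log2 scale with separate groups, but short of the threshold. No inducer gene was called higher before 24 h, although skl was 1.41, 1.34 and 1.33-fold higher at 1, 3 and 6 h and rpr 1.50-fold at 1 h, with separate groups short of the threshold. Diap1 and Dronc passed the threshold at 1, 3 and 6 h, by 1.28 to 1.62-fold over sham. p53 was 1.46-fold higher at 3 h and 1.41-fold at 6 h, and Xrp1 1.52-fold and 1.55-fold. The inducer hid was lower than in sham at 3 h, at 0.634 of its level. At 12 h none of the 8 genes passed, and at 24 h on the same library day rpr alone did, at 2.20-fold. Whole heads mix many cell types, so a change in RNA per cell and a change in the number of cells that express a gene cannot be told apart.

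**Figure D1:**
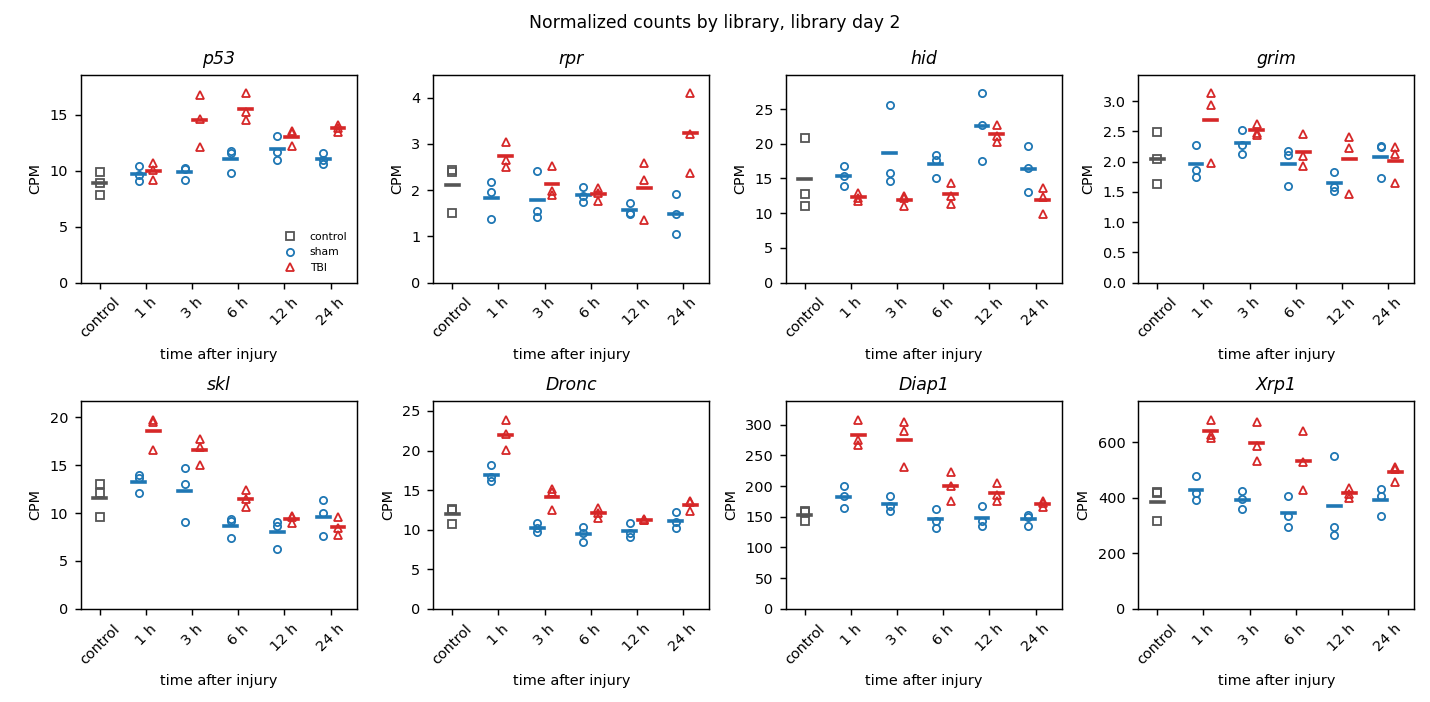
Normalized counts (CPM) of the 8 genes in each library of day 2, with control (squares), sham (circles) and TBI (triangles) libraries and a bar at each group mean (n = 3). Diap1 and Dronc stood above sham in every TBI library from 1 h on, and 1 sham library at 12 h stood far above the others for Xrp1.

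The counts of called genes are set against the share of all genes tested that passed at the same time. As the 8 genes were chosen with earlier results of these data known, these comparisons are a description. Counts at an unadjusted p, here and below, have no share of all genes beside them, since none was taken. At 1 h, 2 of 8 genes passed an adjusted p of 0.05 (edgeR quasi-likelihood test, Benjamini-Hochberg adjustment over all 10739 genes), against 7.39% of all genes. At 3 h, 5 of 8 passed, against 16.5%, with 4 higher and 1 lower. At 6 h, 4 of 8 passed, all higher, against 12.1%. At 12 h the count was 0 of 8 against 8.62%, with 1 of 8 under an unadjusted p of 0.05 (Diap1), and DESeq2 called 1. At 24 h it was 1 of 8 against 8.4%. The median log2 fold change over the 8 genes was 0.48, 0.45, 0.38, 0.22 and 0.24 at the 5 times, and that of all genes lay between -0.003 and 0.02.

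Diap1, which encodes the ubiquitin ligase that restrains caspases, gave the clearest difference. At 1 h its level was 267.0, 274.8 and 308.0 CPM after TBI and 163.6, 183.1 and 199.7 in sham, a log2 fold change of 0.64 (SE 0.11, adjusted p = 0.000322). At 3 h it was 289.4, 305.1 and 230.7 CPM against 168.0, 183.9 and 158.6 (log2 fold change 0.69, SE 0.11, adjusted p = 5.71e-05). Every TBI library lay above every sham library at both times, and both calls held with any 1 library left out. At 6 h the TBI libraries held 222.1, 199.9 and 176.0 CPM and the sham libraries 162.6, 143.0 and 131.5, still without overlap but at a smaller log2 fold change of 0.45 (SE 0.11, adjusted p = 0.00703). That call was lost without TBI replicate 1 or sham replicate 3, with an adjusted p of up to 0.0574, and in a fit of the 6 h groups alone (0.105). At 12 h Diap1 stood at 175.3, 205.1 and 184.8 against 167.5, 142.9 and 135.4 CPM, and the log2 difference of 0.34 missed the threshold (adjusted p = 0.0582), although it passed in DESeq2 (adjusted p = 0.041) and without sham replicate 1 (0.0259).

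Dronc, the initiator caspase gene, was at 23.9, 20.1 and 22.1 CPM after TBI at 1 h and at 16.1, 18.2 and 16.6 in sham. Its log2 fold change was 0.38 (SE 0.10, adjusted p = 0.0167). At 3 h the TBI libraries held 12.5, 14.7 and 15.1 CPM and the sham libraries 9.68, 10.8 and 10.2 (log2 fold change 0.47, SE 0.10, adjusted p = 0.00146). Both groups were lower at 3 h than at 1 h, and the TBI libraries stayed above sham without overlap. At 6 h the values were 12.1, 12.7 and 11.4 against 8.46, 10.3 and 9.58 CPM (log2 fold change 0.35, SE 0.10, adjusted p = 0.0212). The 3 h call held with any library left out but not in a fit of the 3 h groups alone (adjusted p = 0.0503), and the 6 h call was lost in the fit of its own groups (0.123). The 1 h call was lost without TBI replicate 1 or sham replicate 1 or 3 (adjusted p up to 0.119), and the 6 h call without TBI replicate 1 or 2 or sham replicate 1 or 3 (up to 0.135).

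p53 was not called at 1 h. It was then at 10.7, 10.0 and 9.17 CPM after TBI and 10.4, 9.07 and 9.60 in sham, overlapping groups with a log2 difference of 0.03 (SE 0.11, adjusted p = 0.918). At 3 h the TBI libraries had 14.6, 16.8 and 12.1 CPM against 10.3, 10.1 and 9.20 (log2 fold change 0.55, SE 0.11, adjusted p = 0.000667). At 6 h they had 16.9, 15.2 and 14.5 against 11.6, 9.78 and 11.8 (log2 fold change 0.49, SE 0.11, adjusted p = 0.00288). The groups were separate at both times, and both calls held with any library left out, but the 6 h call was lost in a fit of the 6 h groups alone (adjusted p = 0.0617). The step in the p53 difference from 1 h to 3 h, 0.52 on the log2 scale (SE 0.16), missed the threshold as a difference of differences (adjusted p = 0.158). By 12 h the p53 groups overlapped again, at 13.4, 12.2 and 13.6 CPM after TBI and 11.7, 10.9 and 13.1 in sham.

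Xrp1, the most abundant of the 8, stood at 681.9, 614.6 and 626.8 CPM after TBI at 1 h against 392.5, 417.4 and 478.5 in sham. The groups did not overlap, yet the log2 difference of 0.58 (SE 0.19) missed the threshold at an adjusted p of 0.0667, and passed in DESeq2 (0.0466) and in a fit of the 1 h groups alone (0.00516). At 3 h it was at 587.3, 675.1 and 533.0 against 394.9, 425.7 and 361.1 CPM (log2 fold change 0.60, SE 0.19, adjusted p = 0.0297). At 6 h the values were 641.7, 531.2 and 427.0 against 406.7, 333.6 and 293.9 CPM (log2 fold change 0.63, SE 0.19, adjusted p = 0.0292). Every TBI library lay above every sham library at these times, but both calls were close to the threshold. The 3 h call was lost without TBI replicate 1 or 2 or sham replicate 1 or 3 (adjusted p up to 0.12), and the 6 h call without TBI replicate 1 or 2 or sham replicate 2 or 3 (up to 0.17). The fit of only the groups compared, which gained the 1 h call, lost that at 6 h (0.125).

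At 12 h the result for Xrp1 turned on a single library. The sham libraries held 293.7, 266.0 and 551.8 CPM, and the TBI libraries 400.4, 435.5 and 412.7. The library labelled sham replicate 3 lay above all 3 TBI libraries while the other two lay below them. With it, the log2 difference was 0.17 (adjusted p = 0.776), and without it 0.57 (adjusted p = 0.0258). The same library had the lowest share of counts on the mitochondrial genome of any day 2 library, at 11.2%. By that share it hardly stood apart, since sham replicate 1 of 6 h had 11.3%. The part of the 12 h library in the result was not tested beyond leaving it out.

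Among the inducers, hid ran opposite to the other genes. At 3 h it was at 11.1, 12.4 and 12.1 CPM after TBI and at 25.6, 14.7 and 15.8 in sham, a log2 fold change of -0.66 (SE 0.21, adjusted p = 0.0269). Sham replicate 1 was far above the other sham libraries, and without it the log2 difference was the smallest, at -0.36 (adjusted p = 0.311). The call was also lost without any 1 of the 3 TBI libraries, and in a fit of the 3 h groups alone (adjusted p = 0.0866). The TBI libraries were below every sham library at 1 and 6 h too, with log2 differences of -0.32 and -0.42 that did not pass (adjusted p = 0.484 and 0.218).

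skl, which encodes a small inducer of the same family, stood at 16.6, 19.8 and 19.5 CPM after TBI at 1 h against 13.9, 13.7 and 12.1 in sham. At 3 h the values were 15.1, 17.8 and 16.9 against 14.7, 9.11 and 13.1 CPM, and at 6 h 10.6, 11.5 and 12.4 against 7.35, 9.17 and 9.37. The groups were separate at all 3 times, and the log2 differences of 0.49, 0.43 and 0.41 did not pass (adjusted p = 0.0674, 0.0731 and 0.116). The 1 h difference passed in a fit of those groups alone (0.0233), and the 3 h difference without sham replicate 1 (0.0337). For rpr the 1 h values were 2.50, 3.04 and 2.64 CPM against 1.97, 2.17 and 1.38, again separate and again short of the threshold (log2 difference 0.59, SE 0.26, adjusted p = 0.225). grim overlapped between TBI and sham at every time of day 2, with log2 differences between -0.03 and 0.46.

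**Figure D2:**
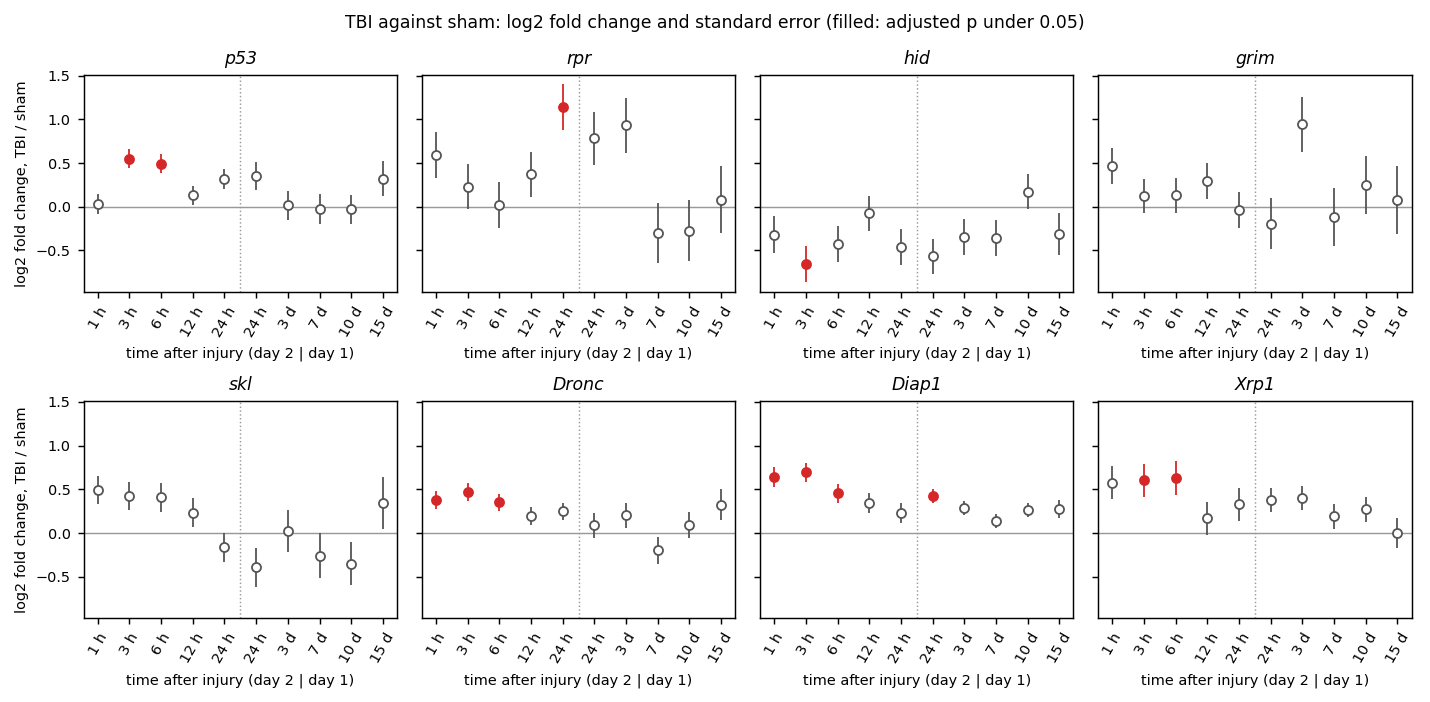
Log2 fold change of TBI over sham (points) with its standard error (bars) for each of the 8 genes at the 5 times of library day 2 (left of the dotted line) and of library day 1 (right). Filled points passed an adjusted p of 0.05: they sit at 1 to 6 h for Diap1 and Dronc, at 3 and 6 h for p53 and Xrp1, at 3 h for hid, and, for 24 h, on rpr in day 2 and Diap1 in day 1.

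Markers of other cell types moved over the same hours. Of the 4 fat body markers tested, 1, 2 and 1 were lower after TBI at 1, 3 and 6 h and none was higher. At 3 h the summed level of the fat body markers was 2269 to 3469 CPM after TBI and 5897 to 7751 in sham. Of 5 glial markers, 1 was higher at each of the 3 times, and 1, 2 and 2 were lower. Their summed level at 3 h was 748 to 1189 CPM after TBI and 922 to 1216 in sham. Of 5 hemocyte markers 1 was lower at 1 h and none passed at 3 or 6 h, and none of 5 neuronal markers passed at these times. Of 2 oenocyte markers 1 was lower at 6 h, when their summed level was 974 to 1171 CPM after TBI and 1562 to 2454 in sham. At 3 h it was 1332 to 2250 CPM against 2525 to 3341. The photoreceptor sum at 1 h was 42205 to 45015.7 CPM after TBI and 37955.5 to 40946.9 in sham, and the groups overlapped at 3 and 6 h. The muscle sums overlapped at all 3 times. No marker of these types was at 0 in any group, and their part in the differences of the 8 genes was not tested.

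At 24 h the same RNAs were measured on both library days, and different genes passed. On day 2 rpr was the gene that rose: the TBI libraries held 4.09, 2.38 and 3.22 CPM and the sham libraries 1.49, 1.92 and 1.06, a log2 fold change of 1.14 (SE 0.26, adjusted p = 0.0045). All TBI libraries were above all sham libraries. Over day 2 rpr had 30 to 100 counts per library. The call was lost without TBI replicate 1 or sham replicate 3 (adjusted p up to 0.061). On day 1 the same RNAs gave 2.87, 2.15 and 3.39 CPM after TBI and 1.89, 1.99 and 1.00 in sham, again separate, with a log2 difference of 0.78 (SE 0.31) that missed the threshold (adjusted p = 0.0844). With the 2 libraries of each RNA summed, rpr passed at a log2 fold change of 0.97 (adjusted p = 0.0339).

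Diap1 was the gene called at 24 h on day 1, where 1 of 8 passed against 15.0% of all 10567 genes. Its values were 259.2, 240.7 and 268.2 CPM after TBI and 178.4, 193.2 and 202.8 in sham (log2 fold change 0.42, SE 0.08, adjusted p = 0.00104), and the call held with any library left out. On day 2 the same RNAs gave 171.8, 166.7 and 175.0 against 134.6, 152.6 and 149.9 CPM, separate but at a log2 difference of 0.23 (adjusted p = 0.239). The summed libraries gave 0.35 (adjusted p = 0.0266). hid was again lower after TBI on day 1, at 9.48, 10.1 and 10.6 against 15.8, 13.3 and 15.6 CPM, short of the threshold at a log2 difference of -0.56 (adjusted p = 0.0575). Xrp1 had 834.9, 716.9 and 858.6 against 540.4, 684.1 and 627.9 CPM (log2 difference 0.38, adjusted p = 0.0703), and passed without TBI replicate 2 (0.0491). With the replicate number as a block, hid and Xrp1 passed on day 1 (adjusted p = 0.0469 and 0.0364).

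p53 and skl did not pass at 24 h. On day 2 p53 stood at 13.8, 14.1 and 13.5 CPM after TBI and 10.6, 10.9 and 11.6 in sham, separate groups with a log2 difference of 0.32 (SE 0.11, adjusted p = 0.0761). The same RNAs gave 13.4, 12.3 and 11.6 against 7.81, 11.6 and 9.71 CPM on day 1 (0.35, SE 0.16, adjusted p = 0.141). skl had 7.13, 6.74 and 6.17 CPM after TBI on day 1 and a wide sham group of 12.7, 8.63 and 5.12. Its log2 difference of -0.39 (adjusted p = 0.258) became -0.67 without sham replicate 3 (0.025).

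Markers of other cell types differed at 24 h too. On day 1, 3 of 5 neuronal markers were lower after TBI, with a summed level of 4560 to 5138 CPM against 5425 to 8322 in sham. Of the fat body, photoreceptor and muscle markers 1 each was lower, and the fat body sum was 3767 to 5453 CPM against 5623 to 8365. On day 2, where rpr was called, 1 fat body marker was lower, 1 glial marker higher, and 1 muscle marker higher and 1 lower. The day 2 fat body sum of 5431 to 7632 CPM overlapped the 6701 to 10392 of sham, and the muscle sum of 659 to 768 CPM lay below the 784 to 962 of sham. No marker of these types was at 0 in any of these groups, and their part in the differences of the 8 genes was not tested.

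From 3 d on, none of the 8 genes passed against sham. The share of all genes that passed in edgeR was 1.35%, 0.227%, 0.473% and 0.0379% at 3, 7, 10 and 15 d. Under an unadjusted p of 0.05 there were 4, 0, 1 and 1 of the 8 genes at these times, with no share of all genes taken. DESeq2 called 1 gene at 3 d and none later. The 3 d values of rpr were 2.80, 3.32 and 3.50 CPM after TBI and 1.60, 1.82 and 1.61 in sham, and those of grim, another inducer, 2.80, 2.59 and 2.38 against 1.55, 1.18 and 1.29. Both pairs of groups were separate, and the log2 differences of 0.93 and 0.94 (SE 0.31 for each) missed the threshold (adjusted p = 0.19 and 0.176). By 7 d both genes overlapped between TBI and sham, at 1.19 to 1.93 against 1.38 to 2.68 CPM for rpr and 1.15 to 1.87 against 1.55 to 1.96 CPM for grim.

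Diap1 was above every sham library in every TBI library at each time of day 1, though it passed in edgeR at 24 h alone. At 3 d it was at 248.4, 250.1 and 249.7 against 194.4, 209.1 and 210.2 CPM, with a log2 difference of 0.29 (SE 0.08, adjusted p = 0.0871) that passed in DESeq2 (0.0196). At 7 d the groups nearly met, at 223.8, 205.0 and 224.8 against 188.3, 202.9 and 203.2 CPM (log2 difference 0.14, SE 0.08, adjusted p = 0.89). At 10 d the TBI libraries held 238.5, 275.1 and 264.8 CPM and the sham libraries 221.2, 211.7 and 215.2 (log2 difference 0.26, adjusted p = 0.185). At 15 d the 2 libraries of each group held 245.3 and 313.6 against 227.1 and 235.2 CPM (adjusted p = 0.608). p53 was within 0.03 of sham on the log2 scale at 3, 7 and 10 d, with standard errors of 0.16 to 0.17. At 15 d it held 12.6 and 12.8 CPM after TBI against 9.79 and 10.6 in sham, separate groups with a log2 difference of 0.32 (SE 0.20, adjusted p = 0.872).

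**Figure D3:**
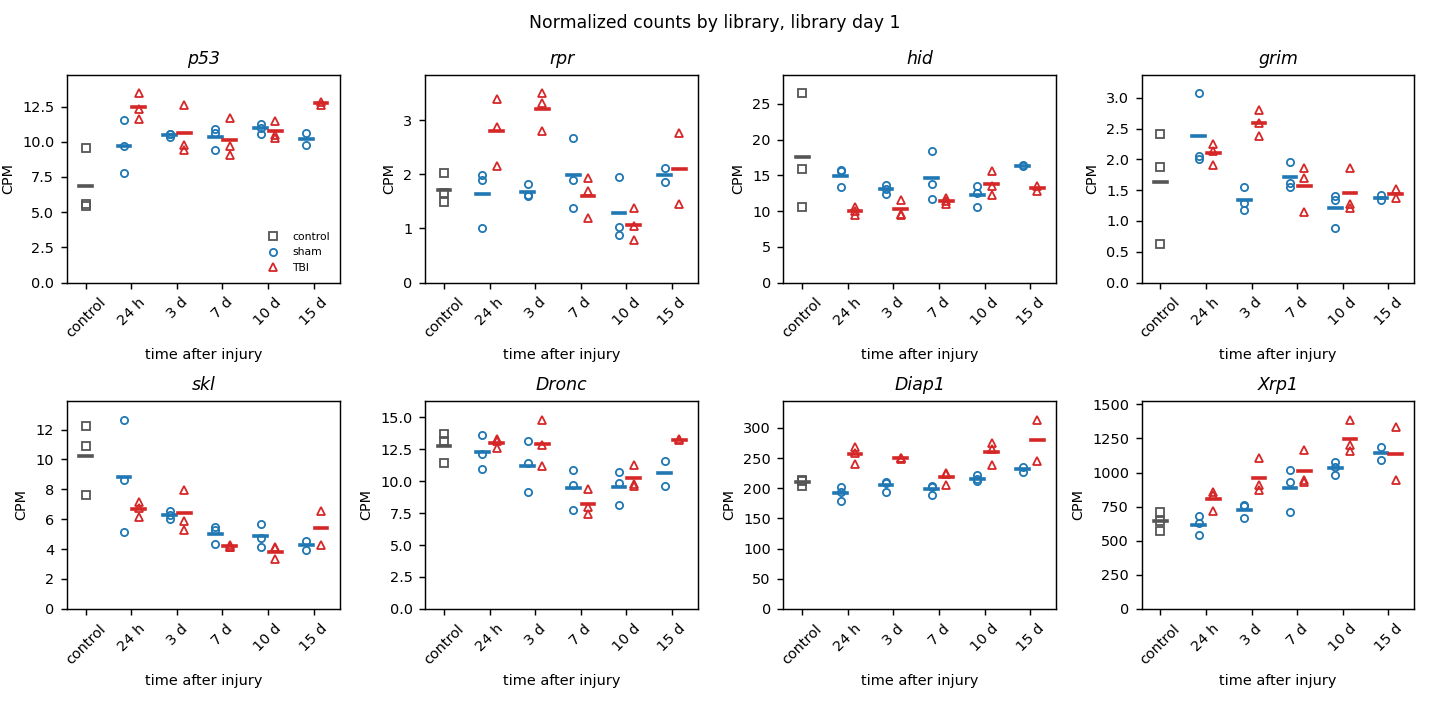
Normalized counts (CPM) of the 8 genes in each library of day 1, with control (squares), sham (circles) and TBI (triangles) libraries and a bar at each group mean (n = 3, and n = 2 at 15 d). Among the sham groups, Xrp1 was highest and skl lowest at 15 d, and Diap1 stood above sham in each TBI library.

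Whether the injury effect itself changed with time was tested for each day by a joint test of 4 contrasts. None of the 8 genes passed in edgeR on day 2, where 3.68% of all genes did, or on day 1, where 0.407% did, and DESeq2 called 0 on either day. Unadjusted p-values were under 0.05 for 2 genes on day 2 (p53 and Diap1) and 1 on day 1 (rpr). Thus a call at 1 time and not at another is not a shown difference between those times for any of these genes.

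Without injury, 2 genes changed over the hours of day 2, and 2 over the days of day 1. The joint test across the 5 sham groups called Dronc (adjusted p = 5.7e-06) and skl (0.00927) on day 2, against 9.61% of all genes, and Xrp1 (0.000717) and skl (0.0201) on day 1, against 14.0%. These calls held with any library left out, except that of skl on day 1, which was lost without sham replicate 1 or 2 of 24 h or sham replicate 1 of 15 d (adjusted p up to 0.229).

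Dronc was high 1 h after the sham procedure. The sham libraries then held 16.1, 18.2 and 16.6 CPM against 12.7, 10.7 and 12.5 in the controls (log2 fold change 0.50, SE 0.10, adjusted p = 0.012), and 0.438% of all genes passed in that comparison. The call was lost without control replicate 2 or sham replicate 2 (adjusted p up to 0.135). From 3 h on the sham libraries were between 8.46 and 12.2 CPM. The TBI libraries of 1 h were thus compared with a sham group that was itself above the controls. p53 was the other gene called against the controls on day 2, at 12 h: 11.7, 10.9 and 13.1 CPM against 8.91, 9.88 and 7.84 (log2 fold change 0.42, SE 0.11, adjusted p = 0.0237, against 5.8% of all genes). It was lost without control replicate 3 or sham replicate 1 or 3 (up to 0.125). At 3, 6 and 24 h none of the 8 genes passed against the controls, against 0.363%, 3.12% and 1.28% of all genes, with 1, 3 and 1 under an unadjusted p of 0.05, and DESeq2 called 0, 1 (Dronc) and 0. All sham comparisons of a day share the same 3 control libraries.

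Over the days after the sham procedure, Xrp1 rose and skl fell in sham heads. Age and time since handling cannot be told apart here, and all comparisons with control share the same 3 libraries. Xrp1 was at 642.5, 570.8 and 711.1 CPM in the day 1 controls and at 1093 and 1191 CPM 15 d after the sham procedure, with log2 fold changes against control of 0.47, 0.69 and 0.83 at 7, 10 and 15 d (adjusted p = 0.0152, 0.000566 and 0.000256). skl had 10.9, 7.61 and 12.2 CPM in the controls and 3.95 and 4.57 at 15 d, with log2 fold changes of -0.71, -1.03, -1.08 and -1.27 at 3, 7, 10 and 15 d (adjusted p = 0.0263, 0.00249, 0.00101 and 0.000843). The late calls, at 7 to 15 d for skl and at 10 and 15 d for Xrp1, held with any library left out. That of skl at 3 d was lost without 5 of 6 libraries (up to 0.107), and that of Xrp1 at 7 d without control replicate 2 or sham replicate 2 or 3 (up to 0.0932). Such calls were common over the whole genome: 2 of 8 genes passed at 3 d against 23.9% of all genes, 4 at 7 d against 29.3%, 5 at 10 d against 37.9%, and 3 against 35.3% at the last time, 15 d. At 24 h none passed on day 1, against 2.09%, with 1 under an unadjusted p of 0.05 and 0 called by DESeq2.

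The remaining calls of this kind were, with 1 exception, lost when single control or sham libraries were left out. p53 was called higher than control at 3, 7, 10 and 15 d, by 0.60, 0.58, 0.67 and 0.57 on the log2 scale (adjusted p = 0.0109, 0.0129, 0.0032 and 0.0187). Its control values were 9.53, 5.59 and 5.45 CPM, and the same 3 RNAs gave 8.91, 9.88 and 7.84 CPM on day 2. Over the sham groups of day 1, all between 7.81 and 11.6 CPM, p53 missed the threshold (joint test, adjusted p = 0.946). The 3 d call was lost without control replicate 2 (adjusted p = 0.0641), the 7 d call without control replicate 2 or sham replicate 3 (up to 0.0653), and the 15 d call without control replicate 2 or 3 or either sham library (up to 0.0901). The exception was p53 at 10 d, which held with any library left out. hid, called lower at 10 d by a log2 fold change of -0.52 (adjusted p = 0.0446), had one of -0.09 without control replicate 2, which held 26.5 CPM on day 1 and 12.8 on day 2, and the call was also lost without any 1 of the 3 sham libraries. Dronc was called lower at 7 and 10 d (log2 fold changes of -0.43 and -0.42, adjusted p = 0.0325 and 0.029), and both calls were lost without control replicate 2 or 3. The 7 d call was also lost without sham replicate 2 or 3 (adjusted p up to 0.171), and the 10 d call without sham replicate 1 or 2 (up to 0.142).

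**Figure D4:**
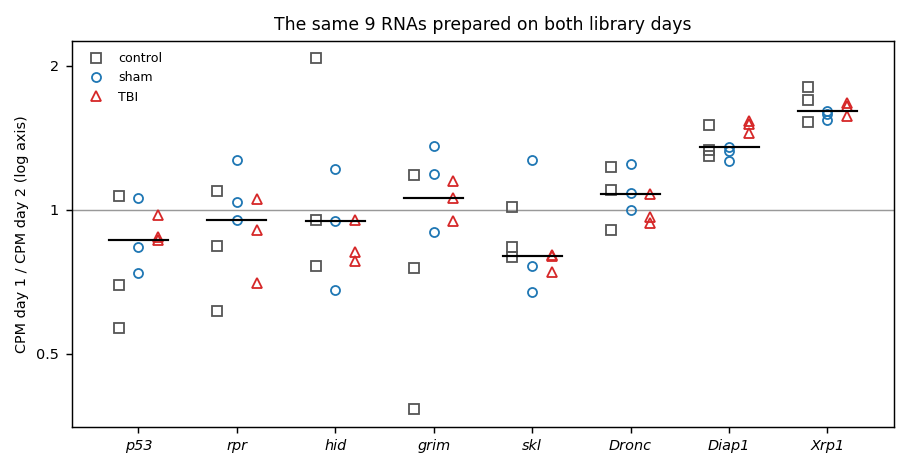
Ratio of the day 1 to the day 2 level (CPM, log axis) for the 9 RNAs prepared on both days, by gene, with control (squares), sham 24 h (circles) and TBI 24 h (triangles) RNAs and a black bar at the median. All 9 Xrp1 ratios lay between 1.52 and 1.80 and all 9 Diap1 ratios between 1.27 and 1.53.

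The CPM of Xrp1 and Diap1 were higher on day 1 than on day 2 in every RNA. CPM were scaled on each day apart and the ratio over all genes was not taken. A shift of scale and a change of these genes thus cannot be told apart. For the 9 RNAs prepared on both days, the day 1 level of Xrp1 was 1.52 to 1.80 times the day 2 level (median 1.61), and that of Diap1 1.27 to 1.53 times (median 1.35), higher in 9 of 9 RNAs for each. The skl ratio had a median of 0.799 and was above 1 in 2 of 9 RNAs. p53 ran from 0.566 to 1.07, hid from 0.678 to 2.07, rpr from 0.615 to 1.27, grim from 0.383 to 1.36 and Dronc from 0.906 to 1.25. Levels of 1 to 12 h and of 3 to 15 d are on different library days and are not compared with each other here.

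Of the other genes of the pathway, the caspase gene Strica, the nucleotide synthesis gene RnrL and the stress gene Gadd45 reached larger fold changes against sham than any of the 8. These 42 genes were listed by function, as apoptosis machinery, p53 and DNA damage, death ligand and receptors, and Xrp1 partner and cell competition. Of them 41 matched the table and 39 were tested on each day. At 1 h none of the 39 passed against sham, against 7.39% of all genes. At 3 h 4 were higher and 4 lower, 8 of 39 against 16.5%, and at 6 h 4 were higher and 2 lower, 6 of 39 against 12.1%. At 12 h 1 was higher, against 8.62%, and at 24 h on day 2 4 were higher, against 8.4%. On day 1, 4 were higher and 1 lower at 24 h, against 15.0%, and none passed from 3 to 15 d. These counts lie near or below the shares of all genes and are given as a description. The median log2 fold change of the 39 lay between 0.01 and 0.07 on day 2.

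Of the 18 genes of apoptosis machinery tested, Strica and Dredd were higher and Debcl lower at 3 h. Strica, which encodes a caspase with a long prodomain, had 2.68, 4.68 and 2.70 CPM after TBI at 3 h and 1.26, 1.63 and 0.82 in sham (log2 fold change 1.42, adjusted p = 0.000349). At 6 h it had 4.81, 4.97 and 3.26 against 1.08, 1.12 and 0.78 CPM (2.15, adjusted p = 3.19e-06), and at 12 h 4.19, 4.38 and 5.59 against 1.00, 1.54 and 1.39 (1.86, adjusted p = 1.97e-05). All TBI libraries were above all sham libraries at these times. At 24 h the log2 fold change of Strica was 1.51 on day 2 and 1.50 on day 1. Dredd, the caspase of the Imd immune pathway, was higher by 0.32, 0.41 and 0.35 on the log2 scale at 3, 6 and 24 h of day 2. Debcl, a Bcl-2 family gene, had a log2 fold change of -0.43 at 3 h (adjusted p = 0.0417). No executioner caspase gene (Drice, Dcp-1) and not the adaptor gene Dark passed against sham at any time.

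Of the 14 genes of p53 and DNA damage, RnrL, the large subunit of ribonucleotide reductase, was higher at 3 h, 6 h and 24 h. Its log2 fold change was 0.79 at 3 h, 0.70 at 6 h, and 1.50 on day 2 and 1.40 on day 1 at 24 h. The 24 h values on day 2 were 8.14, 7.89 and 10.9 CPM after TBI and 2.53, 3.20 and 3.71 in sham. Ku80, which binds broken DNA ends, was higher at 24 h on day 1 (0.71, adjusted p = 0.01). Lower at 3 h were rad50 (-0.34), a DNA break repair gene, and the stress kinase gene p38b (-0.24).

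The death ligand gene egr and its receptor gene wgn were lower after injury. wgn had 21.3, 22.4 and 20.4 CPM after TBI at 3 h and 38.7, 37.7 and 35.0 in sham (log2 fold change -0.80, adjusted p = 3.8e-07), and its fold change was -0.45 at 6 h (adjusted p = 0.00121). egr had 19.2, 21.3 and 18.3 CPM after TBI at 6 h and 36.2, 29.7 and 22.9 in sham (-0.59, adjusted p = 0.0131). Gadd45, a stress gene known to act through the JNK kinase cascade, was at 34.7, 47.3 and 36.2 CPM after TBI at 3 h and 14.2, 16.8 and 13.7 in sham (1.40, adjusted p = 9.78e-06). It was also higher at 6 h (1.09) and at 24 h (0.66 on day 2 and 0.76 on day 1). At 1 h both groups were far above the controls, at 58.8, 67.7 and 61.9 CPM after TBI and 54.7, 70.5 and 58.2 in sham against 13.1, 12.5 and 15.2. fwe, a cell competition gene, was lower at 24 h on day 1 (-0.43, adjusted p = 0.0167).

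**Figure D5:**
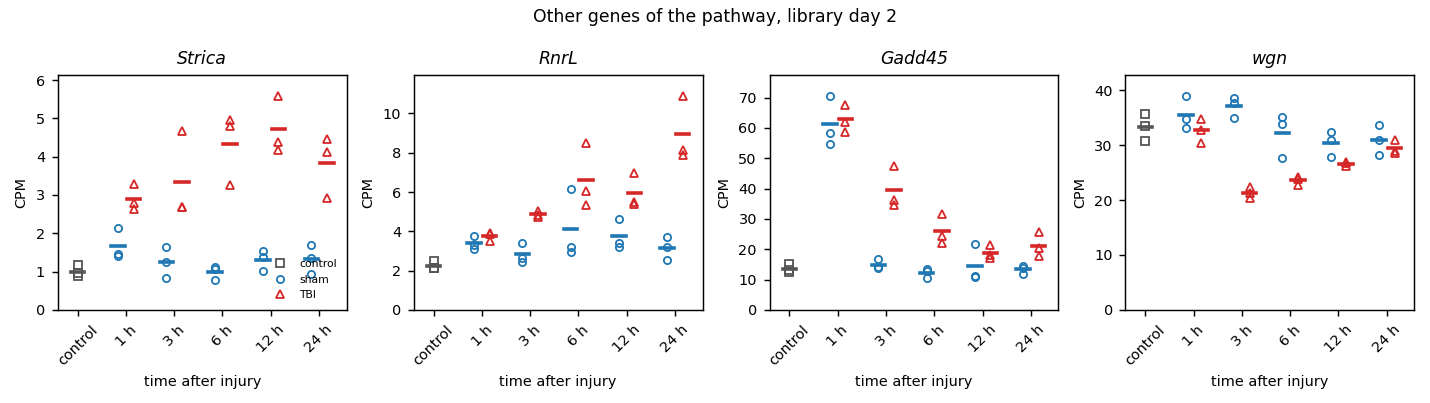
Normalized counts (CPM) of Strica, RnrL, Gadd45 and wgn in each library of day 2, with control (squares), sham (circles) and TBI (triangles) libraries and a bar at each group mean (n = 3). Strica stood above sham in all TBI libraries from 1 h on, Gadd45 was high in both sham and TBI libraries at 1 h, and wgn was lowest in the TBI libraries of 3 h.

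The 8 genes also differed in how they moved together over groups. Over the 11 group means of log2 CPM on day 2, Diap1 and Xrp1 had a Pearson correlation of 0.93, skl and grim 0.86, and skl and Diap1 0.85, while hid was negative with each of the others, down to -0.77 with Xrp1. On day 1 the correlation was 0.65 for Diap1 and Xrp1, 0.40 for skl and grim, and -0.89 for skl and Xrp1. These are descriptions over groups that share libraries' depth and the course of time. The genes whose day 2 pattern was most like that of a gene called at several times were found among 8816 genes. For p53 they were Art3, Polr1D and Nufip (r = 0.98, 0.98 and 0.97), and only Polr1D was also close on day 1 (0.95, against 0.58 and 0.14). For Diap1 they were CG12991, Tsp42Eg and bark (0.98 each), with -0.16, 0.90 and 0.85 on day 1. For Dronc they were CG43095, PGRP-LF and pirk (0.96, 0.95 and 0.94), with day 1 values of 0.17, 0.02 and -0.11. For Xrp1 they were CG42561, CG34133 and Rilpl (0.98 each), with 0.32, 0.17 and -0.41 on day 1.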

How the data were processed

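Gene counts from HTSeq, deposited by the authors as whole numbers, were used as deposited. They come from polyA RNA libraries made with a stranded kit and read on a NextSeq, per the labels' protocols. Per the submitters' processing notes, FastQC, MultiQC, HISAT2, Picard, HTSeq and DESeq2 were used. Versions, genome build, annotation and strand setting: not given in the sources used here. Symbols, positions and exon lengths came from BDGP annotation 6.54. The 5 categories of unassigned reads stayed out of library sizes and tests, and 67.9% to 86.0% of reads were assigned to genes.

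Counts were fitted in edgeR 4.0.16 (R 4.3.3), 1 model per library day over its 11 groups, with TMM scaling, the default filter on low counts and robust quasi-likelihood F tests. On day 2, 10739 genes entered the tests (22 residual degrees of freedom) and on day 1, 10567 (20). P-values were adjusted by Benjamini-Hochberg over all genes of each comparison, with a threshold of 0.05, and the standard error is the log2 fold change over the square root of F. CPM uses TMM-scaled library sizes, and no sequence tables were used. The fit was tested on simulated data. Alternatives were RLE scaling, no filter, DESeq2 1.42.0, the replicate number as a block, only the groups compared, scaling without mitochondrial genes, summed libraries at 24 h, and each library left out. The 8 genes and the lists were chosen with earlier results of these data known. All 8 were named at all times. Of the other listed genes, up to 4 higher and 4 lower calls with the largest fold change were named per comparison. The alike genes were the 3 with the highest correlation among genes with a mean of at least 2 CPM. The series description calls sham and TBI animals paired. The labels number biological replicates but give no shared animal or day. Deviations of same-numbered libraries correlated over 0.1 in every pair in 6 of the 9 comparisons with 3 pairs (1, 6 and 24 h on day 2, and 3, 7 and 10 d). At 15 d, with 2 libraries per group, both pairs give the same value by construction, 0.21.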

Additional observations from a re-analysis of the deposited data

Results flagged for a closer look

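For 2 genes of the pathway lists, the TBI effect itself differed between the 5 times of library day 2, by a joint test of 4 interaction contrasts in edgeR. For wgn, a receptor gene of the death ligand, the adjusted p was 0.00248: its log2 fold change was -0.80 at 3 h and -0.45 at 6 h, and neither 1 h nor 24 h passed. For Gadd45, the adjusted p was 0.0162, with 1.40 at 3 h and 1.09 at 6 h, and no pass at 1 h, when both sham and TBI libraries were high. Gadd45 did not pass at 12 h either. The sham group of 12 h holds replicate 3, the library that stood apart for Xrp1, and it stood apart for Gadd45 too. No result without this library is given for wgn or Gadd45, and its part in both results was not tested.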

How the results depend on the processing

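No call of the 8 genes against sham was reversed. Over the settings other than a left-out library, 476 of 496 fold changes stayed on their side of the threshold. Of the rest, 10 lost a call and 10 gained one. With a library left out 436 of 464 stayed, 23 lost and 5 gained. Most of these fold changes were of genes not called as reported, which could not lose a call. At least 1 left-out library cost the call of Dronc at 1 and 6 h, hid at 3 h and Diap1 at 6 h. The same held for Xrp1 at 3 and 6 h and for rpr at 24 h on day 2. Genes called against sham at 1 h numbered 2, and 1 without the filter and 4 in a fit of only the groups compared. At 3 h there were 5, and 3 in that fit. At 6 h there were 4, but 2 without the filter and 0 in that fit, where p53 was nearest (adjusted p = 0.0617). DESeq2 called 1 at 12 h and 1 at 3 d, where edgeR called none. Summed libraries gave 2 at 24 h, against 1 on either day. On day 1 at 24 h, only the groups compared gave 2. Against the controls, no filter gave 1 on day 2 and 3 on day 1, in place of 2 and 5. The cause of these moves was not tested.

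With each library left out in turn, the count ran from 1 to 2 at 1 h, 3 to 5 at 3 h, 1 to 4 at 6 h, 0 to 1 at 12 h, 0 to 1 at 24 h on day 2, and 1 to 2 at 24 h on day 1, and stayed at 0 from 3 to 15 d. It was 0 for the change of the TBI effect on both days, 2 on day 2 and 1 to 3 on day 1 for the change of sham, and 1 to 3 on day 2 and 4 to 5 on day 1 against the controls. These last 2 kinds, and the change of the TBI effect, were added after seeing the data.

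The replicate block gave 3 calls on day 1 at 24 h in place of 1, adding hid and Xrp1. It changed no other call of the 8 genes against sham. The block was the replicate number, shared by all groups of a day. Pairs of sham and TBI within a time were not modelled, so the effect of pairing on the calls was not tested. Same-numbered libraries correlated from 0.08 to 0.36 at 24 h on day 1. On day 2 the range was -0.19 to 0.58 at 3 h and 0.22 to 0.70 at 6 h. Low counts limit rpr and grim most, with medians of 29 and 26 counts on day 1, and 15 d had 2 libraries per group.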

Other observations

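Some genes of the p53 and DNA damage list differed between older sham heads and the young controls of day 1. Of its 14 genes, which include nucleotide synthesis and stress genes, 4, 7, 9 and 9 were higher at 3, 7, 10 and 15 d, and 0, 1, 0 and 1 lower. The share of all genes that passed was 23.9%, 29.3%, 37.9% and 35.3%, and no enrichment was tested. The median log2 fold change of the 14 was 0.33, 0.52, 0.60 and 0.60, against 0.01 to 0.05 for all genes. mei-41, the fly ATR kinase gene, was at 8.12, 5.98 and 6.43 CPM in the controls and at 13.5 and 13.0 CPM at 15 d (log2 fold change 0.95). Irbp, the fly Ku70 gene, reached 1.31 at 15 d, rad50 0.98, and tefu, the fly ATM gene, 0.70.

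Other listed genes fell over the same days. fwe was at 452.8, 546.5 and 405.7 CPM in the day 1 controls and at 232.4 and 208.9 CPM at 15 d (log2 fold change -1.09). The cytochrome c gene Cyt-c-p went from 451.7, 396.1 and 465.7 to 283.3 and 262.3 CPM (-0.68). Age, time since handling and the control libraries cannot be told apart in these comparisons, which share the same 3 controls.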
